A study of Homo sapiens with 8 samples.

Results

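NEU1, MCOLN1, CTSL and CTSV are 4 human genes whose proteins work in the lysosome, and they are described here across stellate and hepatoma cells with and without CM272, a compound that blocks G9a, which methylates histones, as well as DNMT1, which methylates DNA. The members were the probe sets that carried 1 of these symbols in the platform annotation, 4 probe sets for 4 genes of 14884 gene symbols on the array. They were brought together with their log2 values in all 4 groups already known, so those values and their differences are given as a description, with no test. Every member lay above log2 4, the brightness set for testing, on all 8 arrays.

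The lysosome is the acidic compartment in which cells break down glycoproteins, lipids and worn-out organelles. NEU1 is the lysosomal sialidase, which takes terminal sialic acid off glycoproteins and works in a complex with the protective protein cathepsin A (CTSA) and beta-galactosidase (GLB1). MCOLN1, also called mucolipin or TRPML1, is a calcium channel of the lysosomal membrane that is opened by the phosphoinositide made by the PIKfyve complex. CTSL is a cysteine protease found in most tissues, and CTSV is its close paralogue, known mainly from thymus, testis and cornea. Many lysosomal genes, MCOLN1 and NEU1 among them, are known targets of TFEB and its relatives of the MiT family, which bind E-boxes of the CLEAR type. In hepatic stellate cells autophagy is known to supply fatty acids from lipid droplets during activation.

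Total RNA was measured on Affymetrix whole-transcript arrays, with 1 array per sample and 2 arrays in each of 4 groups. The groups were LX2 with CM272, LX2 control, HepG2 with CM272 and HepG2 control. LX2 is a line of human hepatic stellate cells and HepG2 a human hepatocellular carcinoma line. CM272 was given at 400 nM for 48 h, and controls received 0.1% DMSO for the same time. LX2 was kept in 2% serum and HepG2 in 10%, so line and serum level cannot be told apart. Each group is a culture of 1 established line, and whether its arrays come from independent cultures is not stated, so errors and p-values cover only the spread between these samples. Each array received 300 ng of RNA as input, and a change in every cell cannot be told apart from a larger change in some of them.

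The labels of the lines were checked against markers. All 11 hepatocyte markers that could be tested were higher in HepG2 control than in LX2 control, ALB by log2 9.65, and 4 of 5 stellate or fibroblast markers were lower, VIM at -6.52 (limma, Benjamini-Hochberg adjusted p under 0.05 for each). The lower group of ALB and of VIM lay under log2 4, so these sizes are not exact. DES, the other stellate or fibroblast marker tested, was at 0.34 and did not pass (limma adjusted p = 0.329). Only 7 of the 14 listed stellate or fibroblast markers had a symbol, and COL1A1 and ACTA2 were not among them. LUM and DCN, which mark many fibroblasts, were too dim to test in either line. Replicate arrays of LX2 with CM272 stood furthest apart, with a median absolute difference of 0.26 log2 over 12239 tested genes, against 0.12 in LX2 control, 0.15 in HepG2 with CM272 and 0.14 in HepG2 control.

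The promoter windows of the 4 genes are shown because they differ in the E-box that MiT factors bind. Each window runs from 250 bases before to 50 bases after a transcript start, is taken from RefSeq (GRCh38.p14), and is written 5′ to 3′ on the gene's own strand. The start used is the first base of the gene in RefSeq for NEU1, MCOLN1 and CTSL, but for CTSV it lies 501 bases inside the gene, and sequence upstream of that window was not searched. The windows are chr6:31862772-31863071 (minus strand) for NEU1, chr19:7522374-7522673 (plus strand) for MCOLN1, chr9:87725869-87726168 (plus strand) for CTSL and chr9:97039093-97039392 (minus strand) for CTSV. Capitals mark every match to the E-box CACGTG, its extended form TCACGTG, the full CLEAR palindrome, which is the E-box between GT and AC, and the letters CCAAT, which the factor NF-Y binds.
NEU1: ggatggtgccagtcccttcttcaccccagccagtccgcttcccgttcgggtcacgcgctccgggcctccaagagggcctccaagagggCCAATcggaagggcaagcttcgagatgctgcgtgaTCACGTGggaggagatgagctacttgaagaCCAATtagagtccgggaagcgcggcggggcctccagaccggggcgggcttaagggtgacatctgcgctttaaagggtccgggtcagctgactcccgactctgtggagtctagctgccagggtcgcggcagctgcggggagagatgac
MCOLN1: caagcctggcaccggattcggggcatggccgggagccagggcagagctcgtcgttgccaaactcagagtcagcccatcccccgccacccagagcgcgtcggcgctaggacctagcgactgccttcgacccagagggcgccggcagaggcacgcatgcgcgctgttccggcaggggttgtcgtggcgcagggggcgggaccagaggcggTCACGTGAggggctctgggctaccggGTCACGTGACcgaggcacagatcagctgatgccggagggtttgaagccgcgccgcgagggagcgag
CTSL: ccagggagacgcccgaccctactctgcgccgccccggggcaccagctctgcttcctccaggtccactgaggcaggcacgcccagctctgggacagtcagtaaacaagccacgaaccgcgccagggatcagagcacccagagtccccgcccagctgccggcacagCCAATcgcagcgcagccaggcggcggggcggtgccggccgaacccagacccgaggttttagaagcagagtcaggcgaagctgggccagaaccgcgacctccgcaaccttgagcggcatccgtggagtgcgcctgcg
CTSV: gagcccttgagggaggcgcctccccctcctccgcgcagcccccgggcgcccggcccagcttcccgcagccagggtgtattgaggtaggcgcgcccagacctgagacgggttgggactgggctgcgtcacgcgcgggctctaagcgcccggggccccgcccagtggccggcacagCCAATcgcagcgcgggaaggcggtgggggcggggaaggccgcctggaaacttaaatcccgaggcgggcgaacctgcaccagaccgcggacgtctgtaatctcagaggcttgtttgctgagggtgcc

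The MCOLN1 window held 2 E-boxes. The first lay at -41 to -36 from the start, and the second, at -14 to -9, sat inside a full CLEAR palindrome at -16 to -7. The NEU1 window held 1 E-box at -126 to -121, in the extended form, and no full palindrome. No E-box was found in the windows of CTSL and CTSV, which says only that these letters were not in these windows. Searched on both strands, the E-box was in 7.26% of the 35116 promoter windows in the table, the extended form, which contains the E-box, in 3.71%, and the palindrome, which contains both, in 0.353%.

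**Figure D1:**
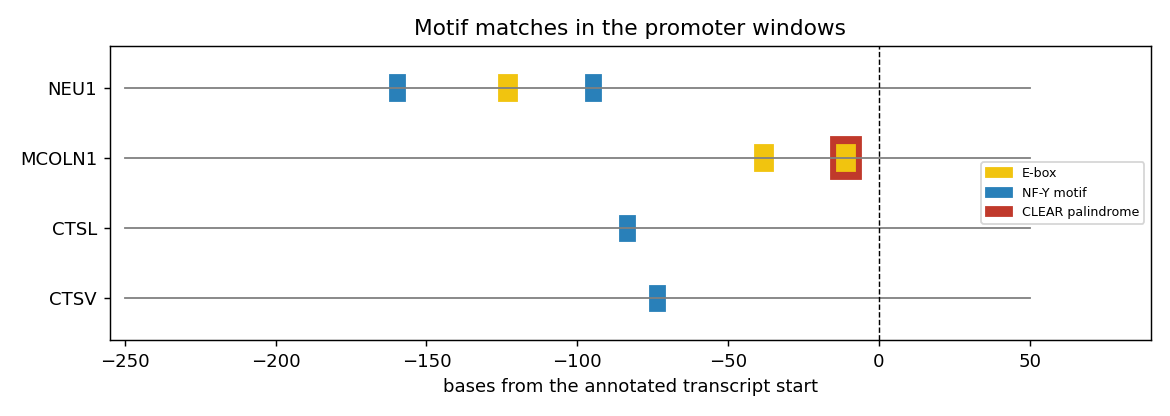
Motif matches in the promoter windows of the 4 genes, placed by their distance in bases from the annotated transcript start (dashed line); grey lines are the windows and coloured boxes the matches. MCOLN1 carries 2 E-boxes close to the start, NEU1 carries 1 further out between 2 NF-Y motifs, and CTSL and CTSV carry 1 NF-Y motif each and no E-box; the CTSV start lies 501 bases inside the gene.

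The windows of the paralogues CTSL and CTSV shared a run of 23 bases around their single CCAAT, which is shown because it is common to this gene pair.
CTSL and CTSV: gccggcacagCCAATcgcagcgc
This run began at -96 in CTSL and at -86 in CTSV, and no window of any other gene in the table held it on either strand. The letters CCAAT were in 34.6% of all windows, and NEU1 held them at -162 and -97 while MCOLN1 had none. CpG is the site that DNMT1 methylates. The windows held 22 CpG (NEU1), 32 (MCOLN1), 27 (CTSL) and 30 (CTSV), against a median of 14 and quartiles of 4 and 28 over all windows, so NEU1 and CTSL lay between the quartiles. Methylation itself was not measured.

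NEU1, the sialidase, stood higher with CM272 in LX2. Its log2 values (probe set 17017495) were 8.30 and 8.19 in LX2 with CM272, against 7.49 and 7.35 in LX2 control. The groups did not overlap, and the lower CM272 array lay 0.71 above the higher control array. The difference was 0.83 (SE 0.16), a 1.77-fold higher level and the 236th highest of 12239 differences. On the same array 5 further probe sets, none of them a member, held identical values, so they add no independent reading. In HepG2 NEU1 had 8.82 and 9.08 with CM272, against 8.36 and 8.69 in control. These groups did not overlap either, but the gap between the nearest arrays was narrower than the distance between the control arrays. The HepG2 difference was 0.43 (SE 0.16), the 492nd highest of 12239.

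MCOLN1, the calcium channel, had the tightest replicates of the 4 genes in LX2 with CM272. Its log2 values (probe set 16857612) were 8.12 and 8.07 in LX2 with CM272, against 7.43 and 7.56 in LX2 control. Both CM272 arrays were above both controls, and the difference was 0.59 (SE 0.14), a 1.51-fold higher level. In HepG2 MCOLN1 had 6.88 and 6.99 with CM272, against 6.71 and 6.83 in control, a difference of 0.17 (SE 0.14). The HepG2 groups came close to touching.

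CTSL, the widely expressed cathepsin, went the other way in LX2. Its log2 values (probe set 17086540) were 8.08 and 8.46 in LX2 with CM272, against 8.83 and 8.93 in LX2 control. Both CM272 arrays were below both controls, but they stood further apart from each other than the controls did. The difference was -0.61 (SE 0.16), and leaving out LX2 CM272 replicate 1 gave -0.42, while leaving out replicate 2 gave -0.80. In HepG2 CTSL had 6.92 on each CM272 array, against 6.77 and 6.85 in control, a difference of 0.11 (SE 0.16) in the upward direction. CTSL has pseudogenes of similar sequence, and cross-hybridisation of its probes with them was not tested. CTSLP2 differed at -0.26 in LX2 and 0.05 in HepG2, with identical values on its 2 probe sets, while CTSL3P and CTSLP8 were too dim to test.

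CTSV showed the largest difference of the 4 in LX2. Its log2 values (probe set 17096285) were 8.90 and 9.05 in LX2 with CM272, against 7.69 and 7.85 in LX2 control. The groups lay 1.05 apart at their nearest arrays, and the difference was 1.21 (SE 0.14), a 2.31-fold higher level and the 86th highest of 12239. In HepG2 CTSV was dim, with 4.81 and 4.97 with CM272, against 4.81 and 4.67 in control. The lower CM272 array and the higher control array were alike to 2 decimals there, and the difference was 0.15 (SE 0.14). On RMA values the folds of dim genes tend to be understated.

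**Figure D2:**
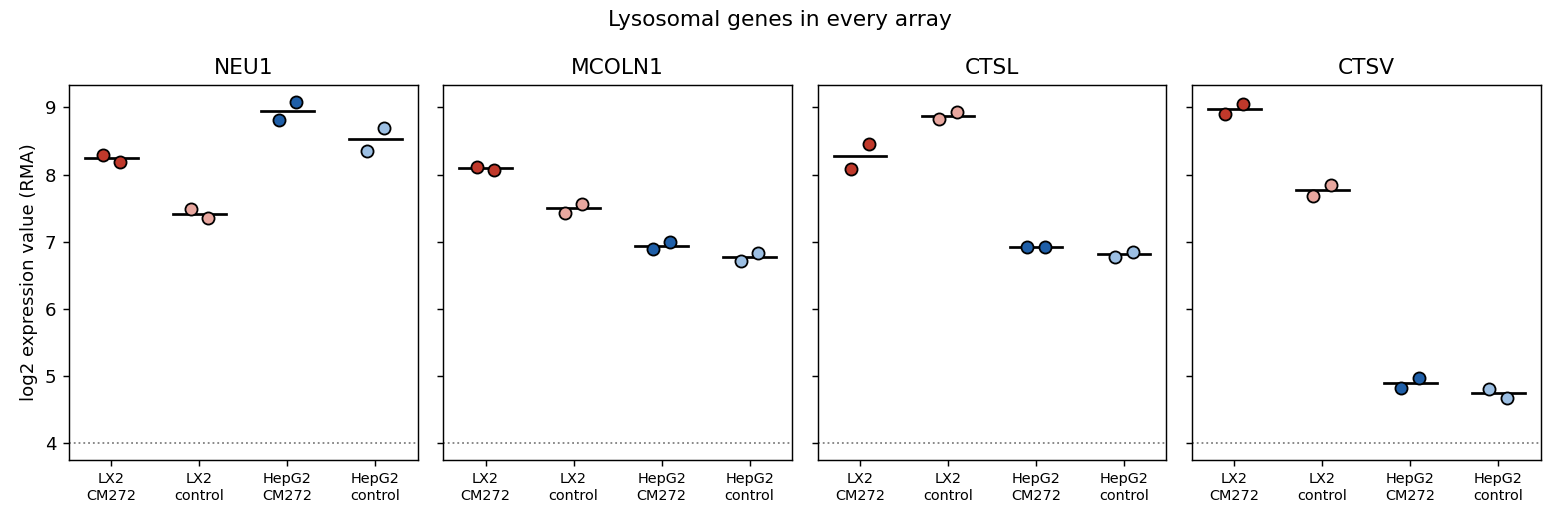
Log2 expression value of NEU1, MCOLN1, CTSL and CTSV on each of the 8 arrays; points are arrays, black bars group means of 2 arrays, and the dotted line the brightness of log2 4 needed for testing. In LX2 the CM272 arrays of NEU1, MCOLN1 and CTSV lie above their controls and those of CTSL below. In HepG2 the differences between CM272 and control are smaller, from 0.11 for CTSL to 0.43 for NEU1.

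In LX2, then, 3 of 4 members were higher with no overlap and 1 was lower with no overlap. Among all tested genes 23.5% were higher and 28.6% lower in LX2 in the same sense. In HepG2 all 4 were higher with no overlap, by 0.11 to 0.43, where 20.7% of all tested genes were. The CM272 effect in HepG2 minus the effect in LX2 was -0.40 (SE 0.23) for NEU1, -0.43 (SE 0.19) for MCOLN1, 0.72 (SE 0.22) for CTSL and -1.06 (SE 0.20) for CTSV. Without 1 array at a time CTSV stayed between 1.13 and 1.29 in LX2, NEU1 between 0.76 and 0.89 and MCOLN1 between 0.53 and 0.66. In HepG2 the NEU1 difference was 0.26 without HepG2 control replicate 1, and that of MCOLN1 was 0.11.

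**Figure D3:**
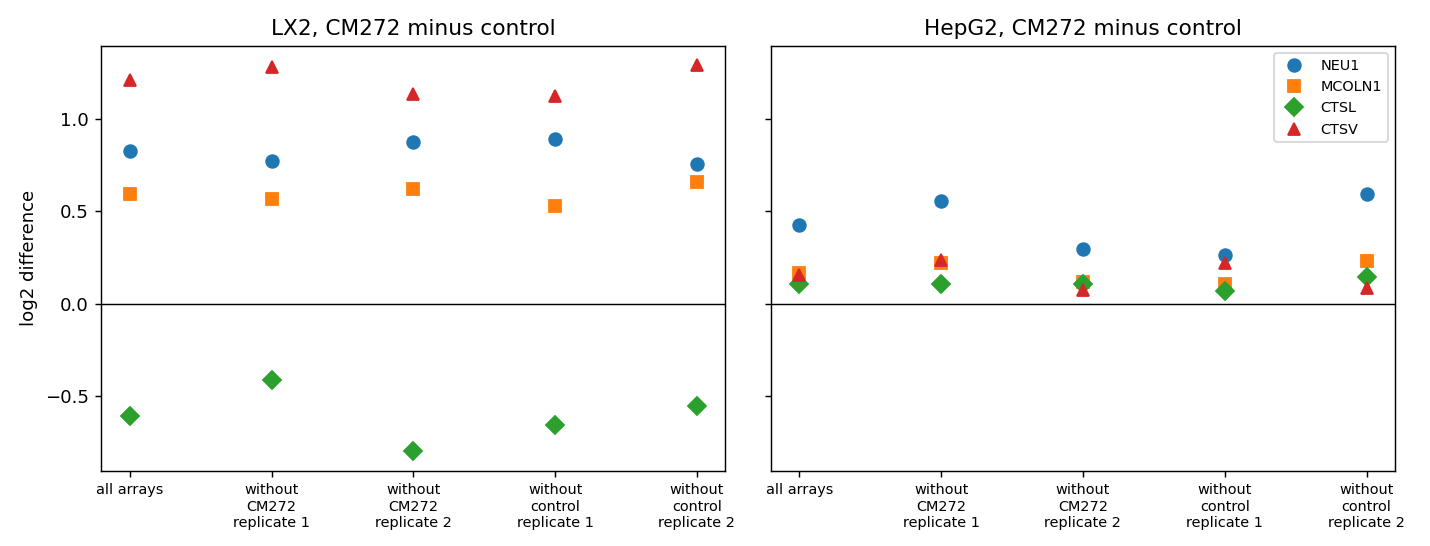
Log2 difference, CM272 minus control, of the 4 genes in LX2 (left) and HepG2 (right) with all arrays and without each array of that line in turn. In LX2 CTSL moves between -0.80 and -0.42 with 1 CM272 array left out, and the 4 genes keep their directions in each setting shown.

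Between the control lines NEU1, CTSL and CTSV differed by more than between CM272 and control within a line, and the order of the 2 differences of MCOLN1 depended on the scaling. The median difference of all tested genes between HepG2 control and LX2 control was -0.27, and it shifted by 0.24 with arrays centred on their medians and by 0.26 with quantile normalization. NEU1 was higher in HepG2 control by 1.11 (SE 0.16), from group means of 8.52 ± 0.23 in HepG2 control and 7.42 ± 0.10 in LX2 control (SD, n = 2 each). MCOLN1 was lower, at -0.73 (SE 0.14), CTSL at -2.07 (SE 0.16) and CTSV at -3.03 (SE 0.14). CTSV averaged 4.74 ± 0.10 in HepG2 control and 7.77 ± 0.12 in LX2 control, an 8.17-fold lower level in HepG2. Beside these 1 higher and 3 lower members, 27.6% of all tested genes were higher and 55.8% lower with no overlap. With the arrays centred or quantile-normalized the directions held, and MCOLN1 was at -0.50 and -0.45, against LX2 CM272 differences of 0.52 and 0.69 under the same settings.

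For each member the order of the 4 groups can be read from the means. NEU1 was highest in HepG2 with CM272 (8.95 ± 0.18), followed by HepG2 control (8.52), LX2 with CM272 (8.24 ± 0.07) and LX2 control (7.42), and the neighbours HepG2 control and LX2 with CM272 differed by little more than the spread of the HepG2 control arrays. MCOLN1 ran from LX2 with CM272 (8.09 ± 0.04) through LX2 control (7.50 ± 0.09) and HepG2 with CM272 (6.94 ± 0.07) to HepG2 control (6.77 ± 0.09). CTSL was highest in LX2 control (8.88 ± 0.07), ahead of LX2 with CM272 (8.27 ± 0.27), HepG2 with CM272 (6.92) and HepG2 control (6.81 ± 0.05). CTSV ran from LX2 with CM272 (8.98 ± 0.10) through LX2 control (7.77) to HepG2 with CM272 (4.89 ± 0.11) and HepG2 control (4.74), where the last neighbours differed by little more than the SD of their arrays.

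The members were then set beside other lysosomal genes by role, from lists that leave the members out. Of 266 listed genes 147 had a symbol in the annotation used here and 141 were tested. With CM272 in LX2 3 of them rose and 6 fell (limma, Benjamini-Hochberg adjustment over 12239 genes), which is 6.38% of them, against 8.42% of all tested genes, so the share of calls was near the background. Over all genes 464 rose (3.79%) and 567 fell (4.63%), and 336 rose and 766 fell with arrays centred on their medians. The median of the 141 differences was -0.04, against -0.02 over all tested genes. In HepG2 0 of 141 passed limma (13 at an unadjusted p under 0.05), where 0.00817% of all genes were called and 11.5% had an unadjusted p under 0.05. The test of a difference in CM272 effect between the lines also called 0 in limma (21 at an unadjusted p under 0.05), against 1.18% of all genes and 17.6% at an unadjusted p under 0.05.

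On the sialidase side no partner of NEU1 passed in LX2. CTSA, the protective protein of its complex, differed by 0.12 (SE 0.17, limma adjusted p = 0.713), with means of 10.26 ± 0.25 in LX2 with CM272 and 10.14 ± 0.09 in LX2 control. The cytosolic sialidase NEU2 was at -0.00, the plasma membrane sialidase NEU3 at 0.13 and NEU4 at 0.12, with limma adjusted p between 0.641 and 0.991. GLB1 was not analysed here. Of 8 tested genes of this group 0 passed limma in LX2 (2 at an unadjusted p under 0.05), and the same was true of HepG2 (3 at an unadjusted p under 0.05), where CTSA was at 0.45 and NEU4 at 0.33.

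Among 10 tested enzymes of glycan, sulfate ester and heparan sulfate breakdown, listed as glycosidases and sulfatases, 1 rose and 1 fell in LX2. ARSA, arylsulfatase A, rose by 0.65 (SE 0.15), with means of 6.03 ± 0.10 in LX2 with CM272 and 5.38 ± 0.03 in LX2 control (limma adjusted p = 0.0316). HGSNAT, the acetyltransferase of heparan sulfate breakdown, fell by 1.12 (SE 0.17), with means of 7.89 ± 0.32 in LX2 with CM272 and 9.01 ± 0.02 in LX2 control (limma adjusted p = 0.00701). None of 7 lipid hydrolases and cofactors passed in LX2 (0 in limma, 1 at an unadjusted p under 0.05), with a group median of -0.19 that stood at 0.14 in HepG2.

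On the channel side MCOLN1, which was chosen with its values known, was set beside relatives chosen by role. MCOLN3, another mucolipin, was at -0.36 (SE 0.19, limma adjusted p = 0.274) in LX2, and MCOLN2 was too dim to test, with means of 3.92 in LX2 with CM272 and 3.54 in LX2 control. The lysosomal cation channels TPCN1 and TPCN2 were at 0.11 and -0.40, and neither passed. VAC14, the scaffold of the PIKfyve complex, was at 0.25 (limma adjusted p = 0.351), while PIKFYVE and FIG4 were not analysed here. Of 12 channels and transporters 0 passed limma in LX2 (2 at an unadjusted p under 0.05). In the group of the PIKfyve complex and lysosome fusion 1 of 16 fell, STX8, a syntaxin of late endosome fusion, by 0.66 (SE 0.14, limma adjusted p = 0.0252), with means of 7.77 ± 0.17 in LX2 with CM272 and 8.43 ± 0.01 in LX2 control.

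On the protease side 1 of 17 cathepsins and other lysosomal proteases rose and 1 fell in LX2. LGMN, legumain, an endopeptidase that cuts after asparagine and processes cathepsins, rose by 0.74 (SE 0.13), with means of 8.01 ± 0.08 in LX2 with CM272 and 7.27 ± 0.06 in LX2 control (limma adjusted p = 0.0129). CTSO, cathepsin O, fell by 0.79 (SE 0.20), with means of 4.47 ± 0.29 in LX2 with CM272 and 5.26 ± 0.27 in LX2 control (limma adjusted p = 0.0448). CTSS, cathepsin S, had 7.63 and 8.26 in LX2 with CM272, against 7.24 and 7.11 in LX2 control, and its difference of 0.77 (SE 0.21) did not pass (limma adjusted p = 0.0547). The abundant cathepsins differed by less, CTSB by 0.01, CTSD by 0.07 and CTSZ at -0.07, as did CTSK by 0.08, with limma adjusted p between 0.802 and 0.980. The cathepsin inhibitors CST3 (0.32), CSTB (-0.39) and CSTA (0.26) did not pass, nor did any of the 8 tested inhibitors in limma (0 called, 2 at an unadjusted p under 0.05).

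None of the MiT factors tested, which control lysosomal genes, passed in LX2 at the level of RNA. TFEB was at 0.03 (SE 0.18, limma adjusted p = 0.941), TFE3 at 0.05 (0.903) and MITF at 0.27 (SE 0.17, 0.362) in LX2. Of 19 genes of the MiT factors and the mTORC1 machinery at the lysosome 1 rose, TSC1, a brake on mTORC1, by 0.60 (SE 0.14, limma adjusted p = 0.0335), and 1 fell, RRAGA, a Rag GTPase that recruits mTORC1 to the lysosome, by 0.53 (SE 0.13, limma adjusted p = 0.0422). TSC1 averaged 8.33 ± 0.05 in LX2 with CM272 and 7.73 ± 0.07 in LX2 control. The membrane glycoproteins LAMP1 (0.15) and LAMP2 (-0.34) did not pass, and TMEM106B, a lysosomal membrane protein, fell by 1.04 (SE 0.21, limma adjusted p = 0.0227) as 1 of 11 membrane and sorting genes, with means of 5.33 ± 0.40 in LX2 with CM272 and 6.36 ± 0.33 in LX2 control. Of 33 autophagy genes ATG10, an enzyme of the ATG12 conjugation pathway, fell by 0.78 (SE 0.18, limma adjusted p = 0.0323), the cargo receptor SQSTM1 was at 0.18 (limma adjusted p = 0.491), and the median was -0.13 in LX2 and -0.14 in HepG2. No V-ATPase subunit was analysed here.

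These calls depended on the arrays used, those of HepG2 included, since 1 fit over all 4 groups shares its estimate of spread. With 1 array left out the number called among the 141 genes moved widely, and so did the number over all tested genes. With all arrays 33 of the 141 were under an unadjusted limma p of 0.05, against 25.3% of all genes. Among markers of other cells CD14 rose in LX2 with CM272 (1.12) as 1 of 5 tested leukocyte and macrophage markers. The mean of the 6 markers of that kind with a symbol was 5.07 to 5.40 in LX2 with CM272 and 4.97 to 5.15 in LX2 control. Among them CD68 averaged 10.19 in both groups. CSF1R averaged 4.76 in LX2 with CM272 and 5.03 in LX2 control, and TYROBP 4.44 and 4.35. CD163 and LYZ stayed under log2 3 in both. Each group is a culture of 1 established line, and whether any other cells had a part in the lysosomal values was not tested.

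The extended E-box seen in the NEU1 and MCOLN1 windows was common among the listed genes. It was in a window of 24 of the 107 tested list genes with a promoter in the table (22.4%), against 6.54% of 9205 tested genes, members left out of both. In LX2 with CM272 0 of these 24 passed limma, against 4 of the 83 list genes whose windows lacked it (4.82%). Their median difference was 0.06, against -0.07 without it. Over all tested genes 46 of 602 with the extended E-box were called in LX2 (7.64%), 22 higher and 24 lower, against 738 of 8603 without it (8.58%), and the medians were -0.04 and -0.03.

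**Figure D4:**
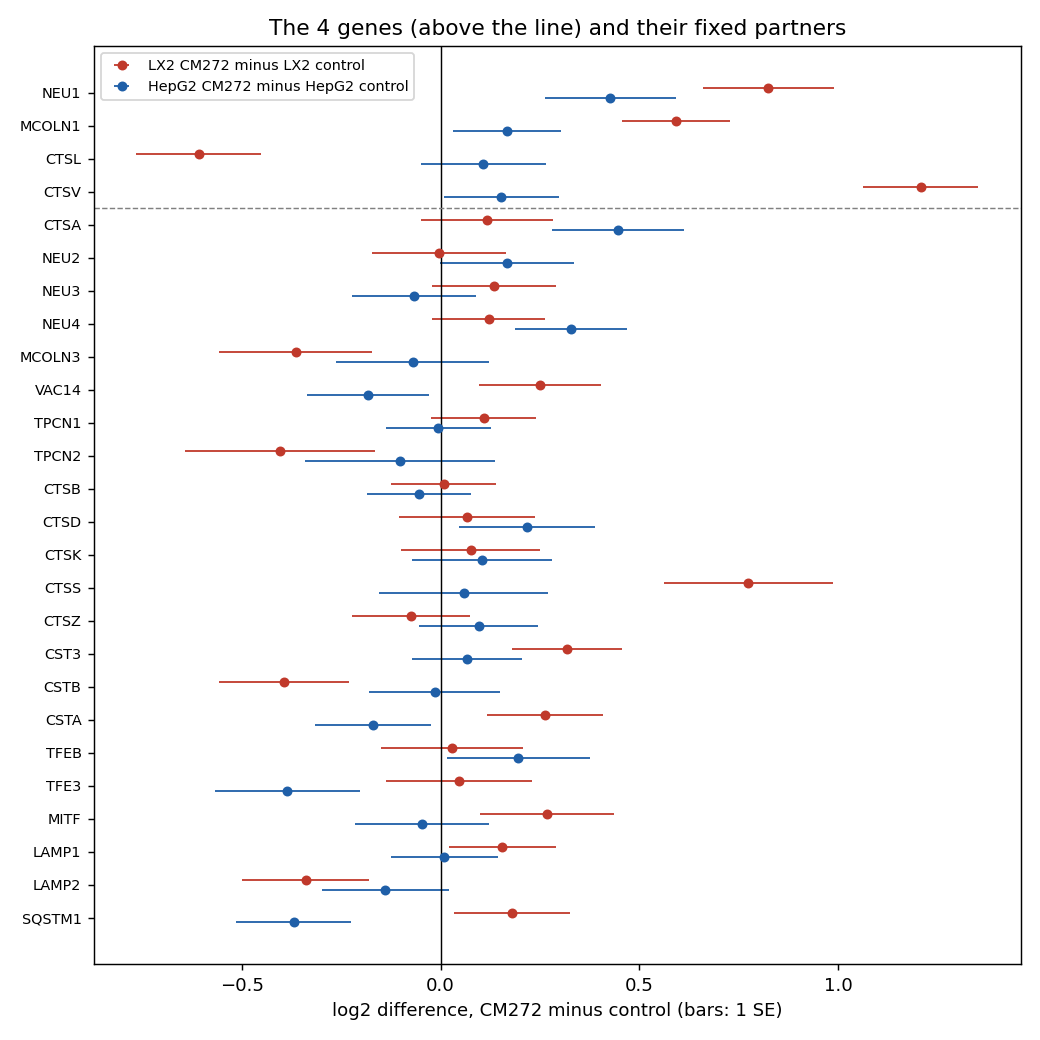
Log2 difference, CM272 minus control, with 1 SE, of the 4 genes (above the dashed line) and 22 partners chosen by role, in LX2 (red) and HepG2 (blue). The partners' LX2 values lie between -0.40 and 0.77, and none of them passed the adjusted threshold in either line.

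**Figure D5:**
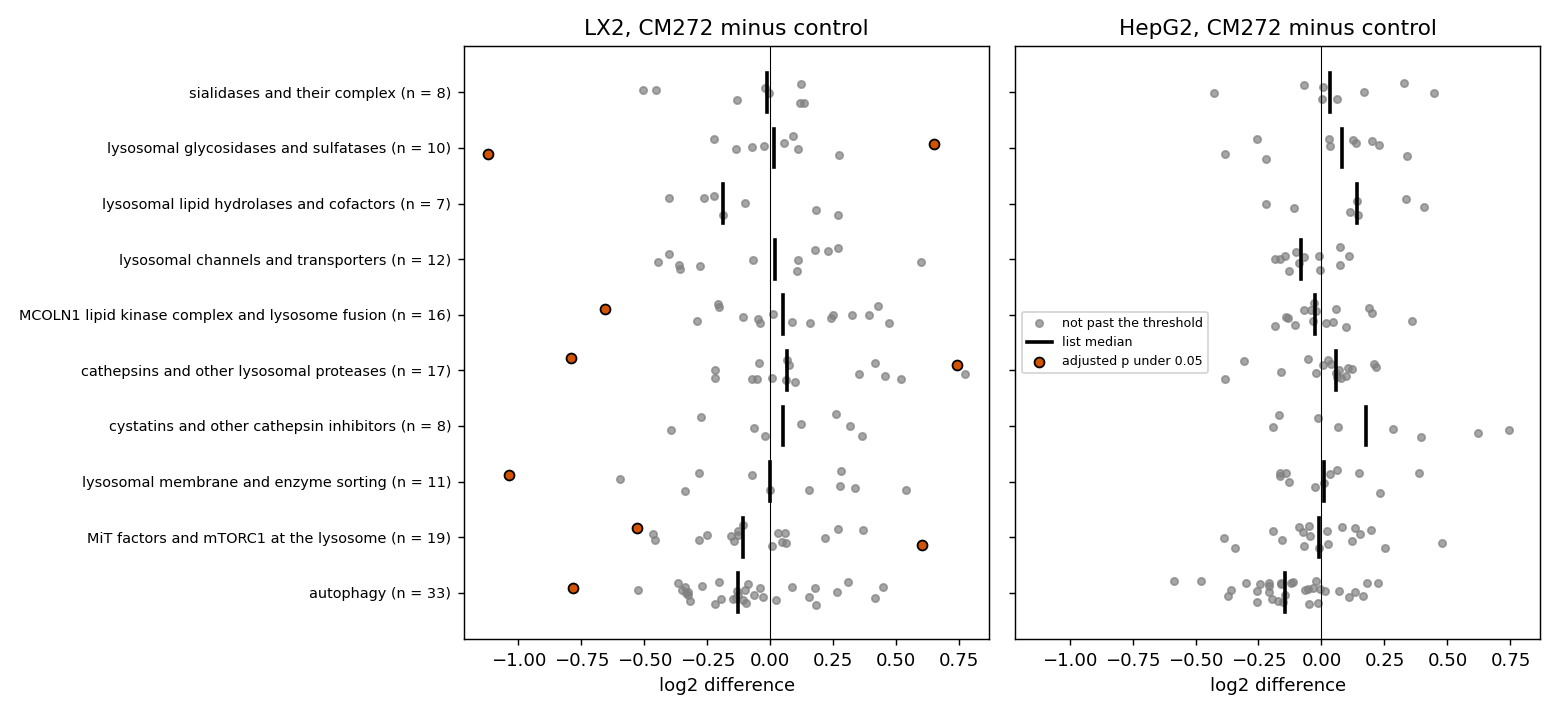
Log2 difference, CM272 minus control, of 141 tested lysosome and autophagy genes by role in LX2 (left) and HepG2 (right); each point is a gene, orange points passed the adjusted p of 0.05 in limma and black bars are list medians. In LX2 3 genes rose and 6 fell, spread over the roles, and in HepG2 0 passed limma (13 at an unadjusted p under 0.05).

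Between the control lines most lysosomal genes differed, as most genes did. Of the 141 genes 21 were higher and 67 lower in HepG2 control than in LX2 control (limma, adjusted p under 0.05), together 62.4%, against 58.1% of all tested genes. Over all genes 17.7% were higher and 40.5% lower. Of these calls 30.4% were higher in HepG2 control, against 45.4% with centred arrays and 47.3% with quantile normalization. With arrays centred on their medians the counts were 30 and 48, and with quantile normalization 30 and 46. Among the cathepsin genes some were lower in HepG2 control, as CTSL and CTSV were, and others were higher. CTSS was lower, at -3.25 (SE 0.21), CTSZ, cathepsin Z, at -3.05 (SE 0.15), CTSO at -2.06 (SE 0.20) and CTSK, best known from osteoclasts, at -0.77 (SE 0.18), where the HepG2 control means of CTSS and CTSO lay under log2 4 and their folds are not exact. In contrast CTSH was higher by 0.98 (SE 0.16), CTSE by 0.97 (SE 0.19) and CTSC, the activator of granule proteases, by 0.73 (SE 0.14), and neither CTSB (-0.31, limma adjusted p = 0.0695) nor CTSD (0.28, limma adjusted p = 0.189) passed. Of 17 proteases 3 were higher (17.6%) and 8 lower (47.1%), against 17.7% and 40.5% of all tested genes, so both shares were near the background.

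The partners of NEU1 did not follow its higher level in HepG2 as a group. NEU4 was higher by 0.89 (SE 0.14), while CTSA was lower, at -0.55 (SE 0.17), NEU3 at -0.42 (SE 0.16) and CMAS, which activates sialic acid, at -1.23 (SE 0.14). Centring the arrays on their medians moves every value between the lines upward alike, so small negative values such as that of NEU3 come nearer to 0. Among glycan-degrading enzymes ARSB was higher by 3.25 (SE 0.16), ARSG by 1.20 and SGSH by 0.69, and IDS was lower, at -1.96 (SE 0.17), HGSNAT at -1.65 and ENGASE at -0.61. ASAH1, acid ceramidase, was higher by 1.13 and the palmitoyl thioesterase PPT1 by 0.66, while the galactosylceramidase GALC, under log2 4 in HepG2 control, was lower, at -2.70, PLBD2 at -0.94 and the saposin precursor PSAP at -0.58.

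Beside MCOLN1 5 of 12 channels and transporters were lower in HepG2 control (41.7%) and 9 of 16 genes of the PIKfyve complex and fusion (56.2%), against 40.5% of all tested genes, so the channel share was near the background. MCOLN3 was lower, at -3.54 (SE 0.19, with its HepG2 control mean under log2 4), LAPTM5, a lysosomal membrane protein of blood cells, at -3.56 (SE 0.18), TMEM175, a lysosomal ion channel, at -0.87 and TPCN1 at -0.81, whereas LAPTM4B was higher by 0.81 and CD320 by 0.67. In lysosome fusion VAMP7 was lower, at -1.97, SNAPIN at -1.66, VTI1B at -1.52, STX8 at -1.14 and VAC14 at -0.43, and VAMP8, the SNARE of autophagosome fusion, was higher by 2.04 (SE 0.16). The MiT factor MITF, under log2 4 in HepG2 control, was lower, at -1.73 (SE 0.17) and TFE3 at -0.63, while TFEB was at -0.05 (limma adjusted p = 0.830). RRAGD was lower, at -1.80, RRAGC at -1.30 and TSC1 at -0.61, and RRAGA was higher by 0.88 and GPNMB, under log2 4 in LX2 control, by 0.73. M6PR, the smaller mannose 6-phosphate receptor, was lower, at -1.12, VPS26A at -0.93 and CD63 at -0.58, and the large receptor IGF2R was higher by 1.25 and NAGPA by 0.75. Of the inhibitors CSTA (2.45) and KNG1 (2.35), both under log2 4 in LX2 control, were higher and CST4 (-0.81) and CST7 (-0.62) lower. In autophagy BNIP3L was lower, at -3.60, EPG5 at -3.11, ULK2 at -2.08 and SQSTM1 at -0.53, and MAP1LC3B was higher by 2.52, ATG13 by 0.78 and ATG16L1 by 0.60.

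The genes whose profile over the 8 arrays was most like a member's were named by the root mean square difference after each gene was centred on its own mean, where arrays of a group share their line and treatment. Nearest to NEU1 were CRYBG1 (0.152 log2), ZNF843 (0.152) and FNDC10 (0.164). Nearest to MCOLN1 were LIMS3-LOC440895 (0.0745), GRIPAP1 (0.0865) and COMMD6 (0.0878), and nearest to CTSL were ICMT (0.0773), CKAP2 (0.0847) and SMYD3 (0.0893). Nearest to CTSV were ROPN1L (0.141), CTSS (0.217) and EPHA4 (0.221). CTSS, a lysosomal protease, was at -3.25 between the control lines (CTSV -3.03) and at 0.77 with CM272 in LX2 (CTSV 1.21). The ranking uses the values with which the members were chosen, so it is a description only. Among the members the measure was 0.584 between MCOLN1 and CTSL at the closest and 2.24 between NEU1 and CTSV at the furthest. Even so, MCOLN1 and CTSL went opposite ways with CM272 in LX2, at 0.59 and -0.61. MCOLN1 ranked 3002nd nearest to CTSL, and CTSL ranked 1258th and MCOLN1 2154th nearest to CTSV, while NEU1 ranked 10554th from MCOLN1, 11244th from CTSL and 10993rd from CTSV.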

How the data were processed

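Total RNA of 8 samples in 4 groups was measured on Affymetrix arrays, 1 array each. The deposited values are log2 expression values, summarised and normalized by the authors with RMA, per the submitters' processing notes, and they ran from 0.49 to 14.07. A genome build of the array is not given in the sources used here, and no probe coordinates were used. The platform annotation gave a single symbol to 16098 of 48416 probe sets. The other 32318, without a single symbol, were not used, and each symbol was represented by its brightest probe set. Genes above log2 4 on both arrays of at least 1 group were tested (12239 of 14884). One limma fit (version 3.58.1, R 4.3.3) over the 4 groups gave moderated tests with Benjamini-Hochberg adjustment at 0.05. The method was run on simulated data with the same spread in every group, so the uneven spread of the LX2 arrays was not covered. With 2 arrays against 2 an exact permutation test cannot go below p = 0.333, so none was used.

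The members and the lists were chosen with earlier results of these data known, and the lists are therefore no independent support. Named were the members, 26 partners fixed by role, each listed gene called in LX2, and up to 3 called genes per list and direction between the lines. Same-numbered arrays did not deviate together (correlations of -0.05 to 0.08), so the numbers were not taken as pairs. Alternatives changed the brightness minimum, the scaling, the probe set rule, the variance model, the samples in the fit and the replicate block, and left out each array in turn.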

Additional observations from a re-analysis of the deposited data

Results flagged for a closer look

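CTSL had CM272 values on opposite sides of control in the lines. Both arrays of LX2 with CM272 lay below both LX2 controls, and both arrays of HepG2 with CM272 lay above both HepG2 controls. The HepG2 difference of 0.11 was smaller than its SE of 0.16. That SE comes from 1 fit over all 4 groups, so it also holds the spread of the LX2 arrays. The HepG2 difference was 0.062 with centred arrays, and 20.7% of all tested genes were higher in HepG2 with no overlap. The CM272 effect in HepG2 minus that in LX2 was 0.72 on the log2 scale (SE 0.22). The difference was not tested, because CTSL was chosen from these values, and without 1 array at a time it ran from 0.52 to 0.91.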

How the results depend on the processing

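The directions of the 4 members held in LX2 and HepG2 under every alternative run. In LX2 NEU1 was 0.92 with quantile normalization, and MCOLN1 was 0.52 with arrays centred on their medians and 0.69 with quantile normalization. In HepG2 CTSL was 0.062 with centred arrays and 0.16 with quantile normalization. Without 1 array at a time the LX2 differences ran from 0.76 to 0.89 (NEU1), 0.53 to 0.66 (MCOLN1), -0.80 to -0.42 (CTSL) and 1.13 to 1.29 (CTSV), and those in HepG2 from 0.26 to 0.59, 0.11 to 0.23, 0.070 to 0.14 and 0.072 to 0.23 in the same order of genes.

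Counts moved more. Fitting each line alone called 198 genes in LX2, 1 of them a listed gene, and 0 in HepG2 in limma (1403 at an unadjusted p under 0.05 in the joint fit). An intensity trend in the variance called 14 listed genes in LX2, 4 genes in HepG2, and 291 genes with 2 listed ones for the difference between the lines. A brightness minimum of log2 6 gave 4 genes in HepG2 and 371 genes with 4 listed ones for the difference, and no minimum gave 2 and 79. Without 1 array at a time LX2 calls ran from 56 (without LX2 control replicate 2) to 2493 (without LX2 CM272 replicate 2), with 98 without LX2 control replicate 1 and 573 without either HepG2 control array. Listed genes called in LX2 ran from 0 to 32. Calls in HepG2 ran from 0 to 1, those of the difference from 19 to 961, with 0 to 11 listed genes, and those between the lines from 5648 to 7935, with 68 to 98 listed genes. The causes were not tested. Among values of single genes under an alternative, 3217 kept their direction and side of the threshold or their value, 104 lost a call, 37 gained one, 13 moved and 0 reversed. Of the listed genes called in LX2, RRAGA lost its call under 11 alternatives, CTSO under 10, TSC1 under 7, ARSA and ATG10 under 6, STX8 under 5, TMEM106B under 4, LGMN under 3 and HGSNAT under 2. With the replicate block LX2 had 931 calls and 7 listed genes, and HepG2 had 1 call, and the samples share only a number. With 2 arrays a group, small differences were not detectable.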

Other observations

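Tested genes near the members on their chromosomes were looked up by their order in RefSeq. Other genes may lie between them and the member. HSPA1B, an inducible heat shock protein gene near NEU1 on chromosome 6, rose in LX2 with CM272 by 0.79 (SE 0.17, limma adjusted p = 0.0259). On the other side of NEU1 lies EHMT2, which encodes G9a, a target of CM272, and it was at 0.02 in LX2 (limma adjusted p = 0.954) and 0.37 in HepG2 (limma adjusted p = 0.418). The 6 genes looked up near MCOLN1, CTSL and CTSV did not pass in LX2, with ZNF358 at -0.43 (limma adjusted p = 0.101) and CDK20 at 0.28 (limma adjusted p = 0.232).

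The full CLEAR palindrome of the MCOLN1 window was also in a window of 67 other tested genes. In LX2 with CM272 5 of these 67 rose (7.46%) and 1 fell in limma. Among 9138 tested genes without the palindrome 321 rose and 457 fell, and over all tested genes 3.79% rose. Both directions together made 8.96% with the palindrome and 8.51% without it. The median difference of the 67 genes was -0.02, and the split by direction was not tested. The called genes, named after their values were seen, were CCDC30 (0.77), LIN52 (0.75), QTRT1 (0.66), ALOX12-AS1 (0.65), DOLK (0.51) and LNPK (-0.72). None of the 5 listed genes with the palindrome was called in limma in LX2.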
